A study of Arabidopsis thaliana with 9 samples.

Results

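Roots of Arabidopsis thaliana seedlings in which the transcription factor gene STZ had been switched on for 24 h were compared with mock-treated roots of the same transgenic line by RNA sequencing. The 3 libraries of 20 µM estradiol for 24 h and the 3 libraries of ethanol (mock) for 24 h were taken by their labels, so 6 of the 9 libraries in the series enter the comparison, and all 27655 listed genes with an exon length above 0 were considered. The other 3 libraries, 20 µM estradiol for 6 h, entered the same fit. There they shared in the filter on low counts, the scaling and the estimate of the spread between replicates. All seedlings were 4 to 5 days old and carried p35S::XVE>>pLexA::STZ in Col-0. XVE, an estradiol-activated hybrid transcription factor, is made under the constitutive 35S promoter, and on binding estradiol it switches on the LexA-controlled STZ copy. Both groups come from T3 seedlings of 1 transgenic line, STZ-OE #2. Estradiol was not given to roots without the transgene in these samples, so an effect of estradiol itself and an effect of STZ cannot be told apart. The sources differ on how long a piece of the root, measured up from the tip, was taken.

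STZ, also called ZAT10, is a C2H2 zinc finger protein with an EAR motif, a short stretch through which plant transcription factors recruit corepressors, and it is known as a repressor induced by salt, drought, cold and immune elicitors. The piece of root that was sampled runs up from the tip and reaches beyond the meristem. It holds dividing meristem cells and a stem cell niche that feeds them. Its files of cells elongate and become xylem, phloem, endodermis, epidermis or root cap. Stress signalling and growth are known to trade off in this organ, and the comparison asks which transcripts differed after a day of high STZ.

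STZ (AT1G27730, chromosome 1, 9648021 to 9649323 in TAIR10.1) was measured first, as a check of the labels. It had 11847, 12562 and 9580 CPM (counts relative to library size, scaled by TMM) in the estradiol libraries, against 18.8, 23.0 and 29.8 CPM in the mock libraries. The groups were far apart, and every library went with its label. STZ took 1.16%, 1.17% and 0.964% of all counted reads in the estradiol libraries, and its log2 change was 8.89 ± 0.23 (SE), or 474-fold (edgeR adjusted p = 1.7e-10). The counts hold transgene and native transcripts together.

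The estradiol libraries held 24375822 to 29065172 counted exon reads and the mock libraries 26169630 to 31299634. On the first principal component of the 6 libraries, which held 93.3% of the variance of the 5000 most variable genes, the estradiol replicates 1, 2 and 3 lay at -79.2, -75.5 and -61.4 and the mock libraries between 71.8 and 72.3. Estradiol replicate 3 thus stood apart, on the mock side of its group. Among the 2235 higher genes that kept their call without each library in turn, averaged at least 5 CPM and exceeded 1 CPM in mock, the median log2 ratio to the mock mean was 1.05, 1.10 and 0.85 in estradiol replicates 1, 2 and 3. Among the 2268 lower genes of the same kind it was -1.10, -1.01 and -0.96.

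**Figure D1:**
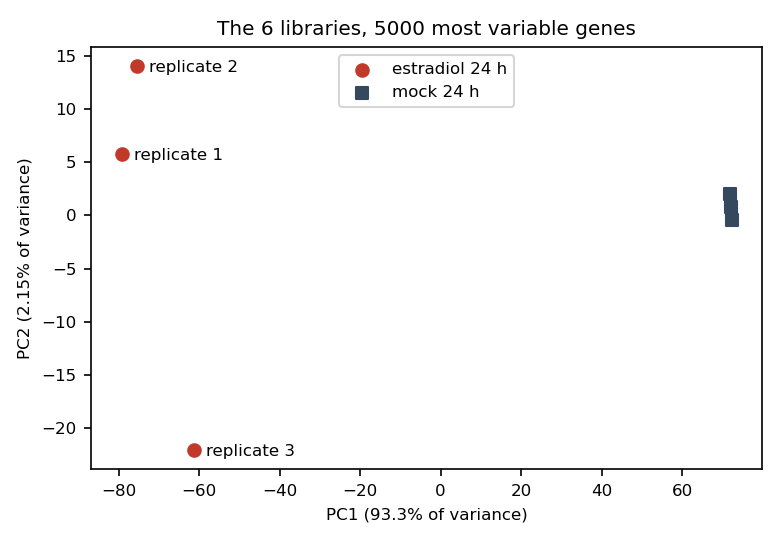
Principal components of the 6 libraries over the 5000 most variable genes: estradiol 24 h (circles) and mock 24 h (squares), with the share of variance on each axis. The mock libraries lie together between 71.8 and 72.3 on the first component, and estradiol replicate 3 lies at -61.4, apart from the other two at -79.2 and -75.5.

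After 24 h, 7206 of 20272 tested genes (35.5%) passed the threshold of an adjusted p under 0.01 and at least 1.5-fold, 3566 higher (17.6%) and 3640 lower (18%). These shares are the background for every group below. Of the called genes, 6038 kept the call without each library in turn, and in 6 the groups overlapped in CPM. At least 4-fold changes numbered 861 higher and 322 lower genes, and at least 16-fold changes 352 and 8. This balance rested on genes with low mock levels, where a fall of that size can hardly be seen: 544 higher and 46 lower genes of the 4-fold changes averaged under 1 CPM in mock. From 10 to 100 CPM in mock there were 98 higher and 88 lower, and above 100 CPM 8 higher and 24 lower. The median log2 change was 1.08 over the higher genes, -1.01 over the lower genes and -0.01 over all tested genes. The higher genes took 23.5% to 27.0% of all reads in the estradiol libraries and 11.4% to 11.6% in the mock libraries, and the lower genes 8.5% to 10.1% and 20.6% to 21.5%. In bulk RNA, fewer cells of a type and less RNA per cell cannot be told apart. With upper-quartile scaling in place of TMM the median of all genes moved to -0.12 and the split to 2932 higher and 4475 lower genes (39.6% higher, against 49.5%).

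**Figure D2:**
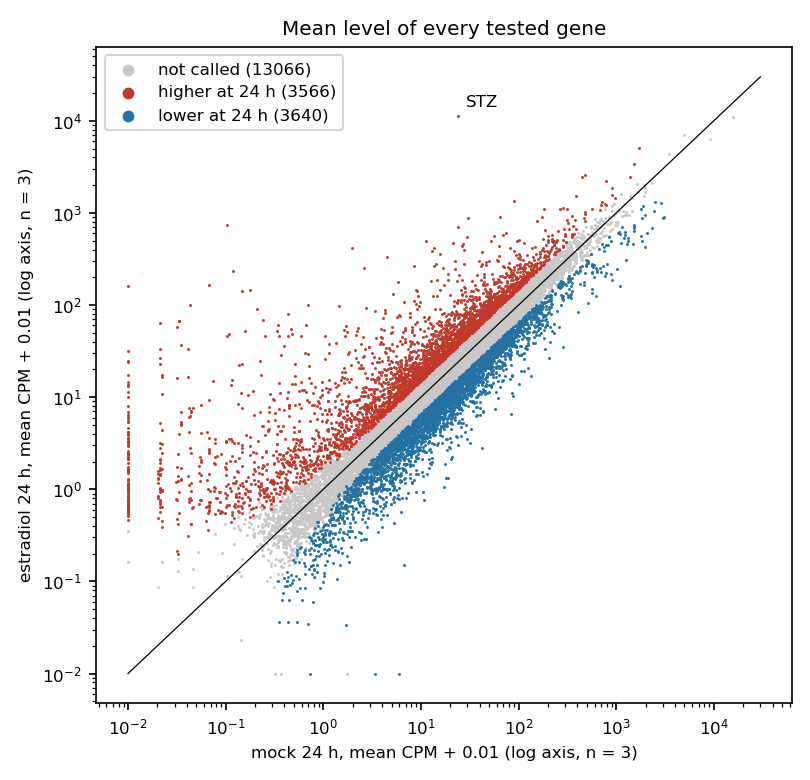
Mean CPM + 0.01 of each of the 20272 tested genes in estradiol 24 h (vertical, n = 3) and mock 24 h (horizontal, n = 3), both axes logarithmic, with called genes coloured and the line of equal level drawn. The 3566 higher genes reach far to the left, where mock levels are near 0, and STZ stands alone at 11330 CPM in estradiol and 23.8 CPM in mock.

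Many of the largest rises were genes with hardly any mock reads. Over all listed genes, 100 had no read in any mock library and at least 10 reads in every estradiol library, and 3 had the reverse. AED1 (AT5G10760), an apoplastic protease-like gene of systemic immunity, had 29.7, 24.5 and 20.0 CPM in estradiol libraries and no read in mock. CHX26 (AT5G01680), of the cation/proton exchangers, had 31.4, 22.2 and 18.1 CPM, and the hexose carrier gene STP2 (AT1G07340) 16.5, 12 and 12.1 CPM, again with no mock read. Against a floor of 3 reads over the mock group, AED1 was at least 735-fold higher, CHX26 at least 713-fold, STP2 at least 403-fold and DAF1 (AT3G62230) at least 334-fold. Estradiol replicate 3 was the lowest of its group in AED1 and CHX26.

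Others had 1 to 3 mock reads. LCAT1 (AT1G27480), a lecithin:cholesterol acyltransferase-like gene, had 121, 90.8 and 85.6 CPM in estradiol libraries, against 0, 0.068 and 0.0315 CPM in mock, a ratio of counts of 2949 (95% exact interval 1009 to 14301). CYP705A24 (AT1G28430), a cytochrome P450, had 54.2, 54.6 and 63.2 CPM against 0, 0.034 and 0.0315 CPM, a ratio of 2533 (701 to 20924). The ubiquitin ligase gene PUB54 (AT1G01680) had 104, 73.2 and 25.3 CPM against 0.0368, 0.034 and 0 CPM, and estradiol replicate 3 was far below the other two. The ratios of PUB54, the MATE carrier gene DTX4 (AT2G04070), the pollen receptor-like kinase gene PRK5 (AT1G50610), the peroxidase gene PER28 (AT3G03670) and CHX27 (AT5G01690) lay between 1639 and 3033, with lower bounds of 353 to 839. Intervals and floors cover counting error only. IDL3 (AT5G09805), a relative of the abscission peptide IDA, reached 297, 225 and 174 CPM in estradiol, against 0.0368, 0.068 and 0.22 CPM in mock (log2 10.95 ± 0.33, adjusted p = 3.2e-10).

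**Figure D3:**
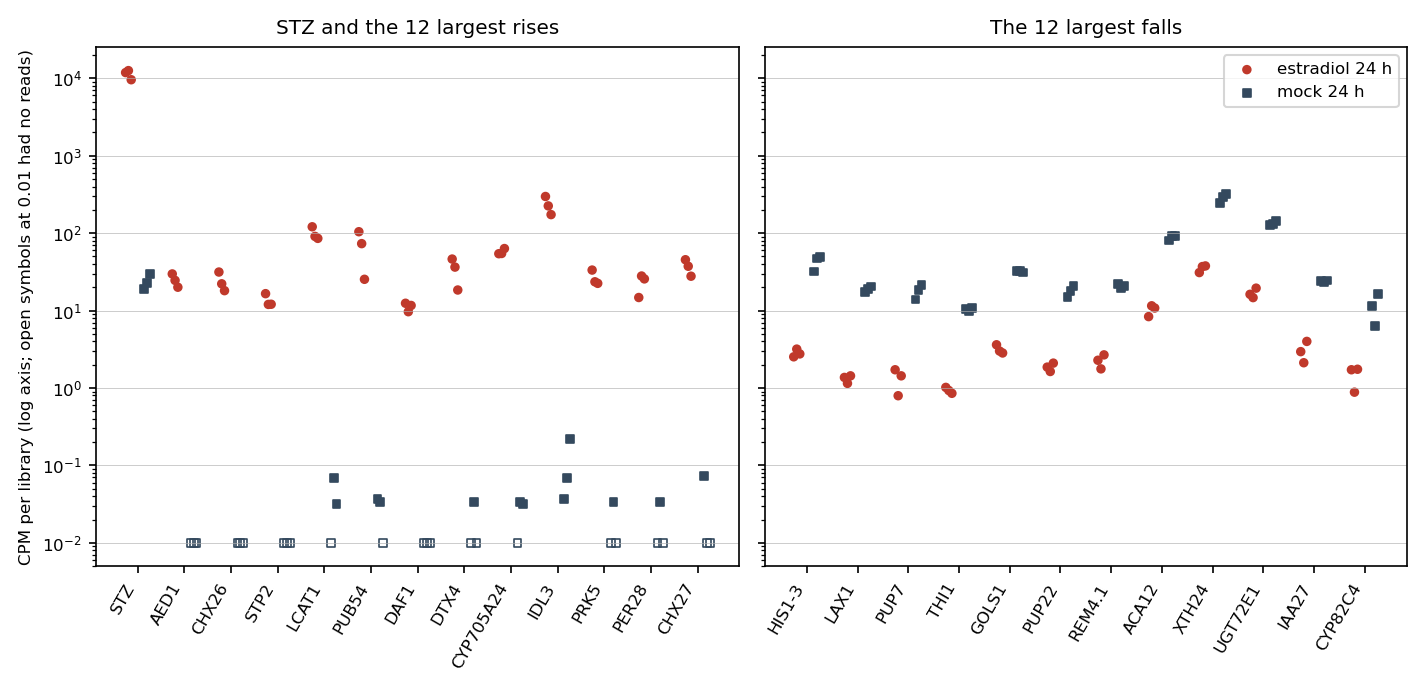
CPM per library, on a log axis, of STZ and the 12 largest rises (left) and the 12 largest falls (right), with estradiol 24 h as circles left of mock 24 h as squares, and open symbols at 0.01 for libraries with no reads. The rises sit at 9.67 to 297 CPM in estradiol and at most 0.22 CPM in mock, apart from STZ. Genes were chosen with groups that do not overlap.

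The largest gains in level, after STZ, included genes of the wall and the cytoskeleton. PER32 (AT3G32980), a class III peroxidase gene, had 4947, 6728 and 3459 CPM in estradiol libraries, against 1628, 1717 and 1822 CPM in mock (log2 1.55 ± 0.22, adjusted p = 4.9e-05). Its relatives PER22 (AT2G38380) and PER34 (AT3G49120) rose 3.87-fold and 2.09-fold. CYP72A14 (AT3G14680), a cytochrome P450, had 1560, 1408 and 1054 CPM against 91.8, 87.1 and 91.7 CPM, a rise of 14.9-fold. The dehydrin-like gene HIRD11 (AT1G54410) rose 2.26-fold and the beta-tubulin gene TUBB9 (AT4G20890) 6.00-fold. The mock libraries were tightly grouped in each of these genes, and the estradiol libraries spread more widely.

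Of the 8 genes that fell at least 16-fold, none that has a symbol averaged 5 CPM or more over the 6 libraries. They include SUFE1 (AT4G26500), BHLH63 (AT4G34530) and SFP2 (AT5G27360), the 3 genes with at least 10 reads in every mock library and no estradiol read, which averaged 5.99, 3.35 and 0.729 CPM in mock and were named after their values were seen. Among genes with a symbol and above that level, HIS1-3 fell most. HIS1-3 (AT2G18050), a drought-inducible linker histone, had 2.53, 3.18 and 2.75 CPM in estradiol libraries, against 31.9, 46.9 and 49.3 CPM in mock (log2 -3.93 ± 0.20, adjusted p = 1.7e-08). LAX1 (AT5G01240), an auxin influx carrier, had 1.37, 1.15 and 1.44 CPM against 17.3, 18.8 and 20.5 CPM (log2 -3.83 ± 0.13, adjusted p = 7.9e-10). The repressor of auxin signalling IAA27 (AT4G29080) fell to 2.95, 2.12 and 4.00 CPM, against 24.3, 23.5 and 24.5 CPM in mock. The purine permease family genes PUP7 (AT4G18197) and PUP22 (AT4G18205) fell by 3.73 and 3.25 on the log2 scale. GOLS1 (AT2G47180), which starts the synthesis of raffinose sugars, fell by 3.34, and the thiamine synthesis gene THI1 (AT5G54770) by 3.47. The calcium pump gene ACA12 (AT3G63380) had 8.35, 11.5 and 10.8 CPM in estradiol, against 80.2, 91.8 and 92.8 CPM in mock. The wall enzyme gene XTH24 (AT4G30270) had 31, 37 and 37.7 CPM against 246, 292 and 322 CPM. The remorin gene REM4.1 (AT3G57540), the glycosyltransferase gene UGT72E1 (AT3G50740) and CYP82C4 (AT4G31940), a P450 of coumarin synthesis, fell by 3.20, 3.00 and 2.95. In CYP82C4 the mock libraries spread widely, at 11.5, 6.32 and 16.4 CPM.

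In level, the plasma membrane proton pump gene AHA2 (AT4G30190) lost most, with 760, 855 and 1014 CPM in estradiol libraries, against 3050, 2996 and 3108 CPM in mock (log2 -1.80 ± 0.11, adjusted p = 5.7e-08). ATGSR2 (AT1G66200), a cytosolic glutamine synthetase, had 395, 466 and 404 CPM against 2300, 1809 and 1871 CPM. Genes of glucosinolate breakdown and the ER body also lost reads: NSP1 (AT3G16400), a nitrile specifier protein, fell 3.41-fold and PBP1 (AT3G16420), a lectin that binds the ER body glucosidase PYK10, fell 2.30-fold. Of the NSP1 reads, 83.5% were unique, so its counts may be shared with near-identical copies. MLP34 (AT1G70850), the protease inhibitor-like gene ATDR4 (AT1G73330) and AT4G11320, annotated as a cysteine protease, fell 3.39-fold, 3.37-fold and 3.75-fold. The fatty acid dioxygenase gene DOX1 (AT3G01420) fell 2.25-fold.

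The gene lists described next were read against the background of 17.6% higher and 18% lower. Among 11 tested C2H2 repressors related to STZ, 6 fell and only STZ rose. ZAT6 (AT5G04340), a close relative of STZ, had 6.04, 8.25 and 7.18 CPM in estradiol libraries, against 37.5, 43.5 and 48.2 CPM in mock (log2 -2.60 ± 0.13, adjusted p = 1.1e-08). ZAT5 (AT2G28200) fell by 1.88, AZF2 (AT3G19580) by 1.48 and AZF1 (AT5G67450) by 1.42 on the log2 scale. The median over the 11 was -0.85, STZ included.

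**Figure D4:**
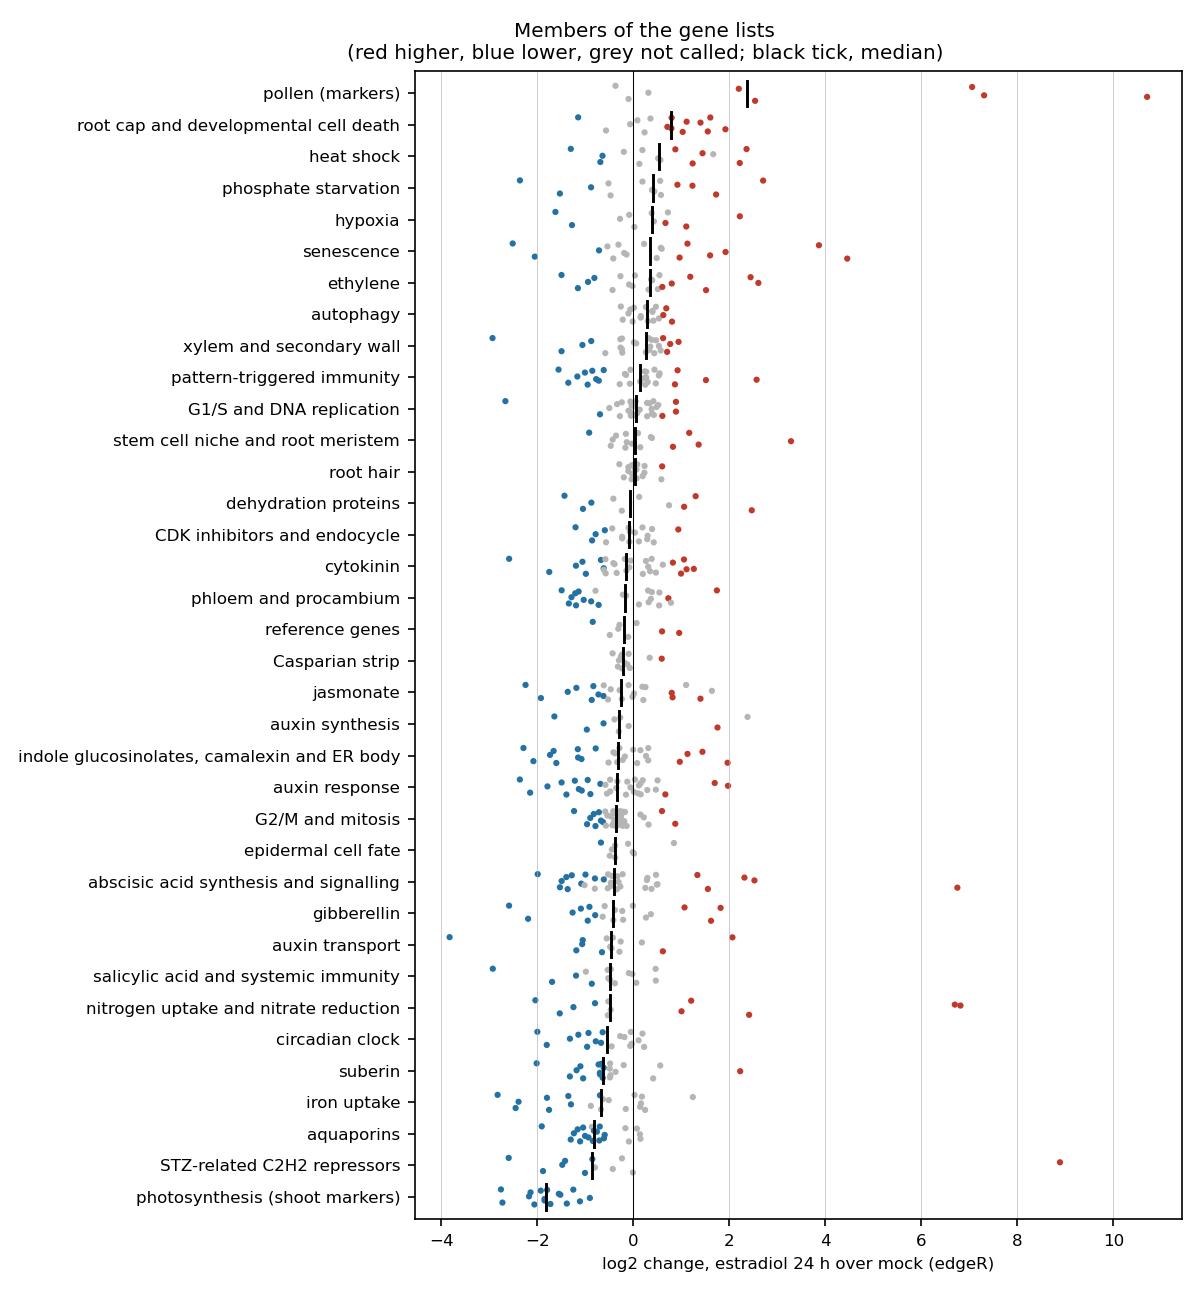
Log2 change, estradiol 24 h over mock (edgeR), of every tested member of 36 gene lists, 1 row a list in order of the median (black tick), with members called higher in red, called lower in blue and not called in grey. Photosynthesis genes lie lowest, with a median of -1.82 and all 16 tested members called lower, and the pollen and root cap lists highest, with medians of 2.37 and 0.79. The pollen median covers only the 8 of 15 members that passed the filter on low counts. A gene can pass that filter through its estradiol level alone, so the filter largely sets this median.

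Most cell cycle genes were not called. Of 36 tested G2/M and mitosis genes, 8 fell, 2 rose and 26 were not called, with a median of -0.36, and the share called lower (22.2%) was near the background of 18%. MAP65-4 (AT3G60840), which bundles spindle microtubules, had 6.32, 5.30 and 8.30 CPM in estradiol libraries, against 15.2, 17.6 and 14.2 CPM in mock (log2 -1.24 ± 0.14, adjusted p = 1.1e-05). The mitotic kinase CDKB2;1 (AT1G76540) had 18.4, 14.2 and 16.4 CPM against 29.9, 32.8 and 28.8 CPM. The cyclin CYCB1;4 (AT2G26760) fell by 0.82 and PANS1 (AT3G14190), a protector of chromatid cohesion, by 0.79. MYB3R5 (AT5G02320), a repressor of G2/M genes, rose by 0.87 ± 0.11, with 17.8, 17.4 and 14 CPM in estradiol, against 8.69, 9.83 and 8.31 CPM in mock. Without estradiol replicate 1, estradiol replicate 2 or mock replicate 3, 1 rather than 2 members were called higher.

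G2/M genes are known for the MSA element, which MYB3R factors bind, and its core AACGG was searched on both strands from 250 bases before to 50 after each annotated start in TAIR10.1. Of the 36 list members, 26 held it (72.2%), against 24.7% of all 27443 windows. It stood in 23.4% of the genes higher at 24 h and in 24.6% of the lower genes. The 250 bases before the start are shown for MAP65-4, which fell (chr3:22480981-22481230, minus strand), and MYB3R5, which rose (chr5:486474-486723, minus strand), both with the core, in capitals.
MAP65-4: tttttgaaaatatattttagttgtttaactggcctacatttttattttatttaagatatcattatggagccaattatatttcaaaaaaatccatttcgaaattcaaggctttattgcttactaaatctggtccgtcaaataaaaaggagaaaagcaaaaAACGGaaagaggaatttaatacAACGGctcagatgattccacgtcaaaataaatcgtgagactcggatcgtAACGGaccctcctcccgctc
MYB3R5: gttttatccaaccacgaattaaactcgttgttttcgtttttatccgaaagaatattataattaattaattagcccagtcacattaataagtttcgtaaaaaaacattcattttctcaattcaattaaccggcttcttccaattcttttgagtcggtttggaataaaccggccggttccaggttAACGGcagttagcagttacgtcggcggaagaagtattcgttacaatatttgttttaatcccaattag
Genes with this core therefore lay on both sides of the comparison.

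At the G1/S step, 3 of 28 genes rose, 2 fell and 23 were not called. CYCD1;1 (AT1G70210), a D-type cyclin, had 6.42, 7.06 and 7.18 CPM in estradiol libraries, against 43.8, 42.0 and 45.2 CPM in mock (log2 -2.67 ± 0.09, adjusted p = 5.9e-10). Its relative CYCD3;2 (AT5G67260) went the other way, with 41.9, 34.0 and 34.5 CPM against 21.5, 19.6 and 18.7 CPM, as did the transcription factor gene E2FB (AT5G22220), which rose by 0.89 ± 0.10. The list's median was 0.06 with TMM and -0.04 with upper-quartile scaling, so it has no firm sign. Of 19 CDK inhibitor and endocycle genes, 1 rose and 4 fell. KRP7 (AT1G49620) rose by 0.94, KRP1 (AT2G23430) fell by 0.86 and SOG1 (AT1G25580), the regulator of the DNA damage response, fell by 0.79.

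Of 16 stem cell niche regulators 4 rose (25%, against a background of 17.6%) and 1 fell. SCR (AT3G54220), needed for endodermis and quiescent centre identity, had 111, 144 and 92.8 CPM in estradiol libraries, against 50.2, 52.1 and 52.7 CPM in mock (log2 1.16 ± 0.14, adjusted p = 1.5e-05). Its partner JKD (AT5G03150) rose by 0.83. WOX11 (AT3G03660), known for founder cells of adventitious roots, had 8.14, 11 and 6.94 CPM against 1.03, 0.748 and 0.882 CPM. WOX5 (AT3G11260), which marks the quiescent centre, was low in both groups, with 2.60, 2.38 and 1.51 CPM against 1.25, 0.510 and 0.787 CPM (log2 1.36 ± 0.29, adjusted p = 1.3e-03). BRAVO (AT5G17800), a brake on quiescent centre division, fell by 0.92. The list's median was 0.03, and -0.08 with upper-quartile scaling.

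Of 15 genes of the root cap and of developmental cell death, 9 rose and 1 fell (2 without estradiol replicate 3), with a median of 0.79. BRN1 (AT1G33280), a NAC factor of root cap maturation, had 21.7, 17.5 and 20.8 CPM in estradiol libraries, against 6.99, 6.87 and 5.89 CPM in mock (log2 1.60 ± 0.12, adjusted p = 3.9e-07). DMP4 (AT4G18425), a marker of developmental cell death, had 26.3, 21.4 and 31.3 CPM against 7.32, 9.52 and 10.05 CPM, and the NAC factor ANAC087 (AT5G18270) rose by 1.11. Among 18 senescence genes, 6 rose and 3 fell. ENDO2 (AT1G68290), a nuclease, had 7.48, 7.11 and 4.00 CPM against 0.699, 0.340 and 0.252 CPM. The sugar carrier SWEET15 (AT5G13170), known as SAG29, had 5.02, 2.38 and 1.75 CPM against 0.147, 0.170 and 0.0945 CPM. SAG21 (AT4G02380), in contrast, had 34.7, 33.8 and 30.5 CPM in estradiol, against 199, 173 and 194 CPM in mock. Autophagy genes rose in 3 of 18 and fell in none, and without estradiol replicate 2 only 1 was called.

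Members of the vascular lists changed on both sides. ACL5 (AT5G19530), which makes thermospermine and delays xylem maturation, had 10.8, 10.2 and 12.2 CPM in estradiol libraries, against 77.2, 83.7 and 93.8 CPM in mock (log2 -2.93 ± 0.12, adjusted p = 2.7e-09). T5L1 (AT1G68810), a bHLH factor of vascular cell division, had 15.6, 15.6 and 19.4 CPM against 46.0, 47.6 and 49.2 CPM, and the HD-Zip factor HB-8 (AT4G32880) fell by 0.88. XCP1 (AT4G35350), a xylem protease, rose by 0.70 ± 0.08, to 203, 185 and 220 CPM in estradiol, against 121, 124 and 128 CPM in mock. The xylem list, of 25 tested genes, held 4 that rose and 4 that fell, 16% each, near the background of 17.6% and 18%. Of 22 phloem and procambium genes, 9 fell (40.9%) and 2 rose (9.1%), with a median of -0.18. The summed level of these genes went the other way, with 542 to 583 CPM in estradiol libraries and 455 to 491 CPM in mock. The procambial DOF factor TMO6 (AT5G60200) fell by 1.49, SMXL5 (AT5G57130) by 1.29 and CVP2 (AT1G05470) by 1.19, both needed for phloem formation. PP2-A1 (AT4G19840), a sieve tube lectin, had 99.8, 88.1 and 86.0 CPM against 26.1, 27.3 and 28.6 CPM.

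Of 20 suberin genes, 11 fell and 1 rose, with a median of -0.63, and 6 were called lower without estradiol replicate 1 and 2 higher without estradiol replicate 3. MYB53 (AT5G65230), a regulator of suberin synthesis, had 1.33, 1.94 and 1.71 CPM in estradiol libraries, against 7.73, 5.92 and 6.39 CPM in mock (log2 -2.02 ± 0.17, adjusted p = 9.9e-07). The exporter ABCG6 (AT5G13580) had 47.1, 62.7 and 43.0 CPM against 131, 129 and 122 CPM, and the hydroxylase CYP86B1 (AT5G23190) fell by 1.10. FAR1 (AT5G22500), a fatty acyl reductase, rose alone, with 47.5, 39.9 and 21.1 CPM against 7.91, 8.37 and 6.93 CPM. Casparian strip genes changed in 1 of 12 and root hair genes in 1 of 19, both higher. The Casparian strip call was lost without any of 6 libraries: estradiol replicates 1 and 2, the 3 mock libraries and 6 h replicate 3. Without estradiol replicate 2, 1 Casparian strip gene was called lower. The root hair call was lost without estradiol replicate 2, estradiol replicate 3, mock replicate 1 or mock replicate 2, and 2 were called without estradiol replicate 1, mock replicate 3 or 6 h replicate 2. Of 9 epidermal fate genes, 1 was called lower, with 3 lower and 1 higher without estradiol replicate 3 and none without estradiol replicate 2.

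Abscisic acid genes changed on both sides, 5 higher and 10 lower of 34. The receptor genes PYL5 (AT5G05440) and PYL6 (AT2G40330) rose, PYL5 with 292, 363 and 257 CPM in estradiol libraries, against 56.5, 59.5 and 67.1 CPM in mock (log2 2.32 ± 0.12, adjusted p = 1.6e-08), and PYL6 with 136, 188 and 148 CPM against 29.2, 25.4 and 27.5 CPM. CYP707A4 (AT3G19270), an enzyme of abscisic acid breakdown, had 4.28, 4.55 and 3.61 CPM against 0, 0.034 and 0.063 CPM. ABA1 (AT5G67030), of abscisic acid synthesis, fell by 1.49 and the response factor ABF1 (AT1G49720) by 1.37. Ethylene genes rose in 6 and fell in 4 of 20. The precursor synthase ACS7 (AT4G26200) had 26.6, 23.1 and 12.8 CPM against 3.42, 3.23 and 3.59 CPM. EBF2 (AT5G25350) and EIN3 (AT3G20770) of the signalling pathway rose by 1.19 and 0.80, while ACO4 (AT1G05010) fell 2.82-fold.

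Auxin genes fell more often than they rose. Of 33 response genes, 11 fell and 3 rose, among them IAA3 (AT1G04240) with 4.39, 4.06 and 7.10 CPM in estradiol libraries, against 24.8, 27.1 and 28.2 CPM in mock, and the conjugating enzyme GH3.5 (AT4G27260), which fell by 2.15. Of the IAA3 reads, 85.7% were unique. Of 14 transport genes 5 fell and 2 rose. LAX3 (AT1G77690), PIN3 (AT1G70940) and PIN7 (AT1G23080) fell by 1.19, 1.05 and 1.07, and the kinase gene PID (AT2G34650) had 12.1, 13.5 and 11.1 CPM against 2.65, 3.20 and 2.90 CPM. Only 1 transport gene was called higher without estradiol replicate 1, mock replicate 1 or mock replicate 2. In auxin synthesis, 3 of 9 fell and 1 rose: YUC9 (AT1G04180) fell by 1.65 and YUC2 (AT4G13260) rose by 1.75. Of 29 cytokinin genes 5 rose and 7 fell. The negative response regulators ARR4 (AT1G10470), ARR5 (AT3G48100) and ARR6 (AT5G62920) rose by 0.82, 1.11 and 1.26, ARR5 with 111, 113 and 111 CPM against 52.7, 53.0 and 49.5 CPM. The receptor AHK3 (AT1G27320) rose by 0.99. Gibberellin receptors split: GID1B (AT3G63010) had 174, 215 and 151 CPM in estradiol, against 58.0, 57.9 and 59.5 CPM in mock, whereas GID1A (AT3G05120) and GID1C (AT5G27320) fell by 0.79 and 1.27, with 3 higher and 7 lower of 19 in that list.

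Jasmonate genes fell in 8 and rose in 3 of 24. The storage protein gene VSP1 (AT5G24780), a jasmonate output, had 8.95, 10.3 and 10.6 CPM in estradiol libraries, against 30.03, 40.1 and 43.2 CPM in mock. The repressors JAZ6 (AT1G72450) and JAZ2 (AT1G74950) rose 2.64-fold and 1.74-fold, and the synthesis genes OPR3 (AT2G06050) and JAR1 (AT2G46370) fell by 0.62 and 0.73 on the log2 scale. Of 15 genes of salicylic acid and systemic immunity, 4 fell and none was called higher, with 1 called higher without estradiol replicate 3. AED1, which rose, was not a member of this list. OSM34 (AT4G11650), osmotin, had 33.5, 28.7 and 17.8 CPM against 146, 224 and 240 CPM, and ICS1 (AT1G74710), which makes the salicylic acid precursor, fell by 0.87.

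Pattern-triggered immunity, the response to microbial and damage signals at the cell surface, held 4 higher and 9 lower genes among 29. The list's median was 0.14, and 0.03 with upper-quartile scaling. Its summed level was 1265 to 1489 CPM in estradiol libraries and 1029 to 1104 CPM in mock. PUB22 (AT3G52450), a ubiquitin ligase that damps it, had 296, 299 and 222 CPM in estradiol libraries, against 44.9, 44.9 and 48 CPM in mock (log2 2.57 ± 0.11, adjusted p = 4.5e-09). The chitin receptor CERK1 (AT3G21630) had 159, 177 and 148 CPM against 82.4, 85.1 and 87.6 CPM. MPK3 (AT3G45640), a kinase of the pathway, had 30.9, 38.5 and 34.2 CPM against 64.7, 72.3 and 71.2 CPM, and WRKY11 (AT4G31550) and PUB24 (AT3G11840) fell by 0.85 and 1.17. The W-box core TTGAC, to which WRKY factors bind, stood in 25 of 30 windows of this list (83.3%), against 50.5% of all windows, and in 53.3% of higher and 52.8% of lower genes. The 250 bases before the start are shown for PUB22 (chr3:19442428-19442677, minus strand) and WRKY11 (chr4:15291935-15292184, minus strand), which changed in opposite directions, with the core on either strand in capitals.
PUB22: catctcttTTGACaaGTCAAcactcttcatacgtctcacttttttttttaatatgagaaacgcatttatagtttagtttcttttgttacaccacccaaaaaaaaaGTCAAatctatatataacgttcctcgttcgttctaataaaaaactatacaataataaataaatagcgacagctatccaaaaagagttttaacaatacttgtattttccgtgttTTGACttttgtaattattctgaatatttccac
WRKY11: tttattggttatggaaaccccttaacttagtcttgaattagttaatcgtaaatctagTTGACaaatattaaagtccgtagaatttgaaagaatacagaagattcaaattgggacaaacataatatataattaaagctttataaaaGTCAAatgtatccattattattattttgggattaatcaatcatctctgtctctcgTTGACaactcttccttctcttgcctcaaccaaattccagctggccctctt
In both, the core occurs 4 times within the window of 300 bases, which ends 50 bases after the start.

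Of 26 genes of indole glucosinolates, camalexin and the ER body, 9 fell and 4 rose. MYB34 (AT5G60890), a regulator of the pathway, had 31.2, 34.7 and 41.7 CPM in estradiol libraries, against 116, 122 and 120 CPM in mock (log2 -1.74 ± 0.09, adjusted p = 2.1e-08). CYP79B3 (AT2G22330), its entry enzyme, had 53.4, 42.2 and 61.6 CPM against 230, 223 and 214 CPM, and IGMT1 (AT1G21100) fell by 2.29. NAI1 (AT2G22770), which controls ER body formation, fell by 1.16. The summed level of the list was 14498 to 15847 CPM in estradiol libraries and 21840 to 23129 CPM in mock.

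Aquaporins, the water channels of plasma and vacuolar membranes, mostly fell. Of 21 tested, 15 fell and none rose, with a median of -0.82 and a summed level of 6149 to 9362 CPM in estradiol libraries, against 12011 to 14264 CPM in mock. PIP2;2 (AT2G37170) had 483, 773 and 662 CPM against 1381, 1512 and 1632 CPM, and PIP1;2 (AT2G45960) 500, 634 and 580 CPM against 1136, 1258 and 1304 CPM. TIP2;3 (AT5G47450), of the vacuolar membrane, fell by 1.91. Of 19 iron uptake genes 8 fell and none was called higher, although without estradiol replicate 2 or mock replicate 3 there was 1. NAS1 (AT5G04950), which makes the iron chelator nicotianamine, had 22.1, 17.5 and 17.8 CPM in estradiol, against 110, 101 and 104 CPM in mock.

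Nitrogen genes changed on both sides, with 5 higher and 4 lower of 12. NRT2.1 (AT1G08090), the high-affinity nitrate carrier, had 51.5, 53.9 and 40.8 CPM in estradiol libraries, against 0.589, 0.340 and 0.472 CPM in mock (log2 6.70 ± 0.25, adjusted p = 1.8e-09). NRT1.5 (AT1G32450), which loads nitrate into the xylem, had 278, 245 and 397 CPM against 1311, 1283 and 1193 CPM. The ammonium carriers split, with AMT1;1 (AT4G13510) higher by 1.21 and AMT1;3 (AT3G24300) lower by 1.53 on the log2 scale. Of 14 phosphate starvation genes, 4 rose and 3 fell. SPX1 (AT5G20150), a phosphate sensor, rose by 1.23, and PHO1 (AT3G23430) and PHO2 (AT2G33770) fell by 0.88 and 1.53.

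Dehydration proteins also split, with 3 higher and 3 lower of 10. COR47 (AT1G20440), a cold-regulated dehydrin, had 809, 1078 and 988 CPM in estradiol libraries, against 1966, 1940 and 2046 CPM in mock (log2 -1.05 ± 0.12, adjusted p = 1.3e-05), and the dehydrins LTI30 (AT3G50970) and ERD10 (AT1G20450) fell by 1.43 and 0.87. RAB18 (AT5G66400), a dehydrin induced by abscisic acid, had 7.41, 9.18 and 3.26 CPM against 1.10, 1.29 and 1.17 CPM. The core of the abscisic acid response element, ACGTG, stood in 8 of 12 windows of this list (66.7%), against 26.7% of all windows. RAB18 held it 3 times, shown in capitals in the 250 bases before its start (chr5:26519448-26519697, minus strand).
RAB18: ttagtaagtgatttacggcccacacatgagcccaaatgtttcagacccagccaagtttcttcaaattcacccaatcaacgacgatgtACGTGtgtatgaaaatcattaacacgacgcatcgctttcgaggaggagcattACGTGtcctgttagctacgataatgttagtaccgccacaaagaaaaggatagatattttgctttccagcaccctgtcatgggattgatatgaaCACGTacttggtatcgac
The core stood in 999 of 3566 windows of higher genes and 1093 of 3639 windows of lower genes.

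Among 14 heat shock genes 5 rose and 3 fell. HSP90.1 (AT5G52640) had 300, 237 and 189 CPM in estradiol libraries, against 103, 87.3 and 76.7 CPM in mock, and the repressor-class heat shock factor HSFB1 (AT4G36990) rose by 1.24, while HSP70 (AT3G12580) fell by 1.30. Hypoxia genes rose in 3 and fell in 2 of 11, with the fermentation gene PDC1 (AT4G33070) lower by 1.62 and the oxygen sensor PCO1 (AT5G15120) higher by 2.22. Of 18 clock genes 9 fell and none rose. PRR7 (AT5G02810), a repressor in the morning loop, had 56.7, 63.8 and 49.8 CPM in estradiol, against 115, 129 and 132 CPM in mock, and RVE8 (AT3G09600), an activator, fell by 1.32. Estradiol and mock samples were both 24 h treatments. No source used here gives the hour of harvest.

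Markers of other tissues moved as well. Of 20 photosynthesis genes taken as markers of shoot tissue, 16 were tested and all 16 fell, with a summed level of 94.2 to 112 CPM in estradiol libraries, against 347 to 368 CPM in mock. Of the whole list, 15 exceeded 1 CPM in each group and 2 had no reads in the 6 libraries. LHCA4 (AT3G47470), a light-harvesting protein, had 14.9, 15.9 and 14.4 CPM against 68.7, 68.9 and 66.1 CPM (log2 -2.17 ± 0.07, adjusted p = 3.5e-10), and PSBO2 (AT3G50820) of photosystem II fell by 2.76. Of 15 pollen genes, 3 had no reads, 2 exceeded 1 CPM in mock and 4 did so in estradiol. The 8 that passed the filter on low counts, which a gene can pass through its estradiol level alone, included 5 called higher, a count that the filter largely sets. The summed level of the pollen list was 45.9 to 54.9 CPM in estradiol and 9.23 to 10.2 CPM in mock. Most of it was PRK5, with 33.3, 23.5 and 22.5 CPM in estradiol. PRK4 (AT3G20190) had 5.48, 5.96 and 6.87 CPM against 0, 0.034 and 0.063 CPM. Whether shoot tissue or another mix of cells had a part in the changes was not tested. Of 8 genes often used as references in RT-qPCR, UBC21 (AT5G25760) rose by 0.96 and GAPC2 (AT1G13440) fell by 0.85, with 1 more called higher, and 1 was called higher without estradiol replicate 2 or mock replicate 1.

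Across 25 gene families taken by symbol, called members usually fell on both sides. Of 59 WRKY genes 14 rose and 15 fell, of 72 AP2/ERF genes 15 and 20, of 70 NAC genes 15 and 11, and of 81 MYB genes 15 and 21. DREB2C (AT2G40340), a dehydration response factor, had 76.8, 87.0 and 67.0 CPM in estradiol libraries, against 6.81, 5.92 and 5.45 CPM in mock (log2 3.67 ± 0.12, adjusted p = 8.4e-10). BHLH25 (AT4G37850) rose by 3.33 and WRKY7 (AT4G24240) fell by 1.59. Of 157 cytochromes P450, 37 rose and 51 fell, and CYP71B12 (AT5G25130) had 48.8, 56.5 and 48.1 CPM against 1.66, 1.87 and 1.67 CPM. The glutathione S-transferase GSTU4 (AT2G29460) had 98.3, 82.0 and 67.7 CPM against 7.66, 8.84 and 6.87 CPM, in a family with 10 higher and 7 lower of 38. Germin-like proteins rose in 5 and fell in 1 of 11, led by GLP9 (AT4G14630), with 78.4, 99.9 and 88.9 CPM against 4.64, 3.43 and 4.72 CPM. Of 88 plant defensin genes 43 had no reads in the 6 libraries and only 9 passed the filter on low counts, which a gene can pass through its estradiol level alone, with 7 called higher and 1 lower, and PDF2.1 (AT2G02120) had 79.0, 58.4 and 41.0 CPM against 2.28, 1.39 and 1.45 CPM. Histones rose in 2 of 21 (1 without estradiol replicate 2), a family that by its symbols leaves out HIS1-3, which fell. Expansins fell in 2 of 17, with 1 called higher without estradiol replicate 3. The cell-signalling peptide gene CLE44 (AT4G13195), known for keeping procambium undifferentiated, had 44.3, 32.4 and 14.2 CPM in estradiol, against 0.773, 0.612 and 0.535 CPM in mock.

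Some of the genes that rose most lay next to each other. All 352 genes that rose at least 16-fold were protein-coding and kept the call without each library in turn, and 83 of them had a direct neighbour on the chromosome in the same set, in 46 pairs. CHX26 and CHX27 are such a pair on chromosome 5. On chromosome 1, NRT2.1 and NRT2.2 are neighbours, at 48.7 and 0.508 CPM in estradiol against 0.467 and 0 CPM in mock. On chromosome 3, CYP72A9 and CYP72A10 averaged 22.4 and 61.1 CPM in estradiol, against 0.127 and 0.332 CPM in mock, and on chromosome 5, CRRSP57 and CRRSP58, of the cysteine-rich secreted repeat family, 141 and 80.3 CPM against 0.136 and 0.421 CPM. No source used here says whether counting used strand, so reads that run on from a neighbour cannot be told apart from reads that start at the gene. The share of neighbours was not compared with other gene sets.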

How the data were processed

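The authors trimmed read pairs of stranded, poly(A)-selected libraries, mapped them to TAIR10 in CLC Genomics Workbench and deposited, for each library, counts of total and of unique exon reads per gene, with RPKM and TPM values. The deposited counts of total exon reads were the unit analysed. The RPKM values deposited by the authors (reads relative to gene length and mapped reads) served as an alternative only, and the deposited TPM values were not tested. Of 32833 listed genes, 5178 with exon length 0 held no reads and were left out. By locus tag, 32548 matched the RefSeq annotation of TAIR10.1, which gave positions and promoter sequence and whose exon lengths equal those in the files for 99.4% of 27445 genes.

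All 9 libraries entered 1 fit in edgeR 4.0.16 (R 4.3.3): TMM, filterByExpr (20272 genes left), glmQLFit and glmQLFTest for estradiol 24 h minus mock, Benjamini-Hochberg adjustment over all tested genes. Following the published analysis, the call was set at an adjusted p under 0.01 and at least 1.5-fold, and the verbs rose and fell are used of called genes. Each SE was the size of the log2 change divided by the root of its F statistic. The biological coefficient of variation was 0.0909. Group values are CPM per library. Folds against 0 mock reads use a floor of 3 reads over the group, and those against 1 to 3 reads a 95% exact interval. The steps were tested on simulated counts.

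Genes named are STZ, the 12 largest rises and falls and the 8 largest gains and losses in CPM (with a symbol, a mean of at least 5 CPM, groups that do not overlap and a call kept without each library in turn), up to 5 such called members of each of 36 lists by smallest p, and up to 2 of each of 25 families, of which not all are printed, and 1 of the largest gains is not reported here. CYP72A9, CYP72A10, NRT2.2, CRRSP57 and CRRSP58 were added as neighbour pairs after their values were seen. The runs AT1G27240 to AT1G27280 and AT5G01120 to AT5G01150 were added in the same way. Members, lists and families were chosen with earlier results of these data known. Of 727 list entries, 6 with no matching symbol were left out. The alternatives were other scalings, filters, tools (DESeq2 1.42.0, limma 3.58.1), thresholds, unique reads, RPKM, a replicate block and leaving out each library. The labels say biological replicate, without naming separate cultures, so the p-values cover the spread of these samples only, which may be technical. Within a group, no pair of libraries agreed within sampling noise (chi-square per gene of 3.09 to 23.5).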

Additional observations from a re-analysis of the deposited data

Results flagged for a closer look

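Of 227 called named genes, 4 differed from mock in opposite directions at 6 h and 24 h of estradiol, each past the threshold at both times, and the direct contrast of 24 h minus 6 h tested the difference (edgeR, Benjamini-Hochberg). The jasmonate output VSP1 was higher than mock at 6 h (log2 1.08 ± 0.12) and lower at 24 h (-1.93 ± 0.14), a difference of -3.01 (adjusted p = 1.3e-08). OPT3, an iron and copper transporter of the phloem, was higher at 6 h (1.01 ± 0.16) and lower at 24 h (-1.35 ± 0.18), a difference of -2.37 (adjusted p = 5.1e-07). The hemoglobin gene HB1 was higher at 6 h (0.67 ± 0.12) and lower at 24 h (-1.28 ± 0.14), a difference of -1.95 (adjusted p = 4.3e-07). The P450 gene CYP71B12 was lower at 6 h (-1.29 ± 0.20) and higher at 24 h (4.88 ± 0.13), a difference of 6.17 (adjusted p = 5.3e-10). All 3 libraries of each group enter these values, and both times share the mock libraries. The mock libraries were all kept for 24 h, so the 6 h values are not matched for treatment time. With 3 libraries a group, single libraries were not tested as outliers.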

How the results depend on the processing

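The count of 7206 called genes stayed within 1.5 times under 24 of the 25 alternatives, from 5255 with a stricter filter to 8011 with glmTreat against 1.2-fold. With an adjusted p under 0.05 and no fold limit, 13247 genes were called, 6709 higher and 6538 lower, since the threshold itself was looser. Without each library in turn the calls numbered 6794 to 7743 (3299 to 3925 higher and 3312 to 3818 lower), the most without estradiol replicate 3. Other scalings moved the split between directions: total counts alone gave 3103 higher and 4165 lower. With the 6 h libraries left out of the fit, 3703 genes were called higher and 3412 lower. DESeq2 called 7354 genes, limma-voom 7210, unique reads 7186 and log2(RPKM + 1) 5977. STZ stayed called under every alternative run. Of the 227 called named genes, 10 lost the call in at least 1 alternative, and none changed direction. Nearly all of them were named because they kept the call and its direction without each library in turn. The fits that left out a library could therefore hardly show a loss among them. Over all 7206 called genes, 6038 kept the call in those fits.

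The deviations of same-numbered estradiol and mock libraries had correlations of 0.13, 0.01 and -0.02 for numbers 1, 2 and 3. Pairs of unlike number ran from -0.14 to 0.15. Same-numbered libraries thus did not stand out, but 3 libraries a group are too few to exclude pairing. A replicate block gave 7318 called genes, 3597 higher and 3721 lower. Depth limits low genes: a group with 0 reads allows up to 3 reads. The design holds 1 transgenic line and no estradiol control without the transgene.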
